A study of Bos taurus with 21 samples.

Results

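Skeletal muscle contracts when calcium leaves the sarcoplasmic reticulum and relaxes when it is pumped back, and the genes considered here encode the proteins of that cycle. The 10 genes were RYR1, CASQ1, CASQ2, TRDN, CACNA1S, CACNB1, ATP2A1, ATP2A2, SLN and PLN, and a probe was taken as theirs when the transcript printed beside it on the array is listed under the gene in the cattle annotation. Of the 10 genes, 8 had a matched probe, while none was matched to TRDN, which links the store proteins to the release channel, or to CACNA1S, the pore and voltage-sensing subunit of the channel in the T-tubule. The 8 genes held 19 of the 43653 probes on the array, whose named part covered 12538 genes. Each gene's probes carried the same transcript identifier. After the filter on low values, 16 of the 19 probes were tested, out of 20132 in all, and each of the 8 genes kept at least 1. The probes left out were 2 of the 4 for RYR1 and 1 of the 2 for PLN.

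The study profiled foetal muscle of 2 beef breeds on one-colour microarrays, Blonde d'Aquitaine (BA), a breed of high muscularity, and Charolais (CH), at 110, 180, 210 and 260 days post conception (dpc). BA had 3, 2, 3 and 2 foetuses at these stages in that order, and CH had 2, 3, 3 and 3, so that the 21 arrays each came from 1 foetus. All foetuses were conceived by artificial insemination of cows of their own breed in their first pregnancy, and each breed had 2 sires. The foetuses of a group all shared a sire in BA at 180 dpc, BA at 260 dpc and CH at 210 dpc. The labels name the muscle as Longissimus thoracis and the study's methods as Semitendinosus, so the muscle is not settled here. No group was treated, and the BA foetuses were not genotyped for the myostatin mutation known in that breed. Both sexes were present in BA at 110 and 210 dpc and in CH from 180 dpc on. All foetuses of BA at 180 and 260 dpc and of CH at 110 dpc were female. The number of arrays, 2 or 3 a group, limits the precision of every value below.

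An action potential enters the muscle fibre along the T-tubules, where the voltage-gated calcium channel (CACNA1S with its subunit CACNB1) opens the ryanodine receptor RYR1 in the facing membrane of the sarcoplasmic reticulum. The calcium that flows out is held inside the store by calsequestrin, of which CASQ1 is the main form of skeletal muscle. CASQ2 is the form of heart and is also found in slow fibres. The pump SERCA1, encoded by ATP2A1, returns calcium in fast fibres, SERCA2, encoded by ATP2A2, does so in slow fibres and heart and, as another splice form, in most other cells, and the small membrane proteins sarcolipin (SLN) and phospholamban (PLN) slow these pumps.

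Values are normalized log2 intensities, that is the log2 of the scanner's background-corrected signal after the 75th percentile of each array was set to the same level, so that a difference of 1 is a doubling. A gene is represented by its brightest tested probe unless another probe is named. Levels of different probes are not compared, since probes differ in how strongly they bind. Of the 19 probes, 18 were well above background on all 21 arrays and the dimmest of RYR1 on 19. A difference was called when its adjusted p, from limma with Benjamini-Hochberg adjustment over the 20132 tested probes, was under 0.05. The foetuses are separate animals, so the spread between arrays holds both biological and technical variation.

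From 110 to 260 dpc, 6 of the 8 measured genes rose in both breeds and none fell. They were the release channel RYR1, the skeletal calsequestrin CASQ1, the channel subunit CACNB1, the fast pump ATP2A1 and both pump regulators, SLN and PLN. The brightest probes of CASQ2 and ATP2A2, the slow and cardiac forms, did not pass the test in either breed. The change was widespread on the array, where 27.6% of all tested probes rose and 24.8% fell in BA, and 27.5% rose and 24.7% fell in CH. The median difference of the 8 genes was 2.07 in BA and 1.91 in CH, against 0.03 over all tested probes in either breed. Arrays at 110 and 260 dpc did not overlap for 6 of the 8 genes in BA and 7 of the 8 in CH, where 66% and 68.8% of all tested probes did not overlap.

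RYR1, the channel through which calcium leaves the store, had a higher group mean at each later stage in both breeds. In BA its level was 4.14, 4.71 and 3.83 at 110 dpc, 5.02 and 5.61 at 180 dpc, 6.05, 5.79 and 5.82 at 210 dpc, and 6.38 and 6.73 at 260 dpc. In CH it was 4.50 and 4.35, then 4.96, 5.74 and 5.35, then 5.82, 5.92 and 5.69, and finally 6.55, 6.83 and 6.56. Every array at 260 dpc lay above every array of the earlier stages, whereas the ranges at 180 and 210 dpc lay close together in BA and overlapped in CH. RYR1 was 5.03-fold higher at 260 than at 110 dpc in BA (log2 difference 2.33, SE 0.24, limma adjusted p = 5.39e-07) and 4.68-fold higher in CH (adjusted p = 8.87e-07). Its 3 other probes differed by 1.63 to 2.02 in BA and by 1.64 to 2.38 in CH.

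CASQ1, the main calcium-binding protein of the store in skeletal muscle, had the second largest rise of the 8 genes. Its level in BA was 3.40, 3.56 and 3.18 at 110 dpc, 5.02 and 5.35 at 180 dpc, 6.22, 6.23 and 6.11 at 210 dpc, and 7.55 and 7.50 at 260 dpc. In CH it went from 3.83 and 3.65 through 5.07, 5.66 and 5.22, then 5.80, 6.03 and 5.90, to 7.07, 7.45 and 7.68. No array of one stage overlapped an array of another, in either breed or across them. The rise from 110 to 260 dpc was 17.7-fold in BA (log2 difference 4.14, SE 0.18, limma adjusted p = 4.51e-11) and 12.6-fold in CH (log2 difference 3.66, adjusted p = 1.95e-10). A further probe of CASQ1 differed by 4.29 in BA and 3.83 in CH.

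CASQ2, the calsequestrin of heart and slow fibres, stayed within a range of 1 log2 unit. The level in BA was 6.30, 6.28 and 6.05 at 110 dpc, 6.02 and 6.38 at 180 dpc, 6.30, 6.69 and 6.56 at 210 dpc, and 6.12 and 6.29 at 260 dpc. In CH it was 5.997 and 6.02, then 6.24, 6.52 and 6.23, then 6.37, 6.38 and 6.03, and last 6.12, 5.70 and 6.46. The lowest and the highest arrays were thus a CH foetus of 260 dpc and a BA foetus of 210 dpc, and the youngest and oldest groups overlapped in both breeds. The difference between 260 and 110 dpc was -0.0054 in BA (95% interval -0.41 to 0.40, limma adjusted p = 0.984) and 0.08 in CH (95% interval -0.32 to 0.49, adjusted p = 0.741), and its sign turned with the scaling of the arrays. CASQ2 had 1 probe.

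**Figure D1:**
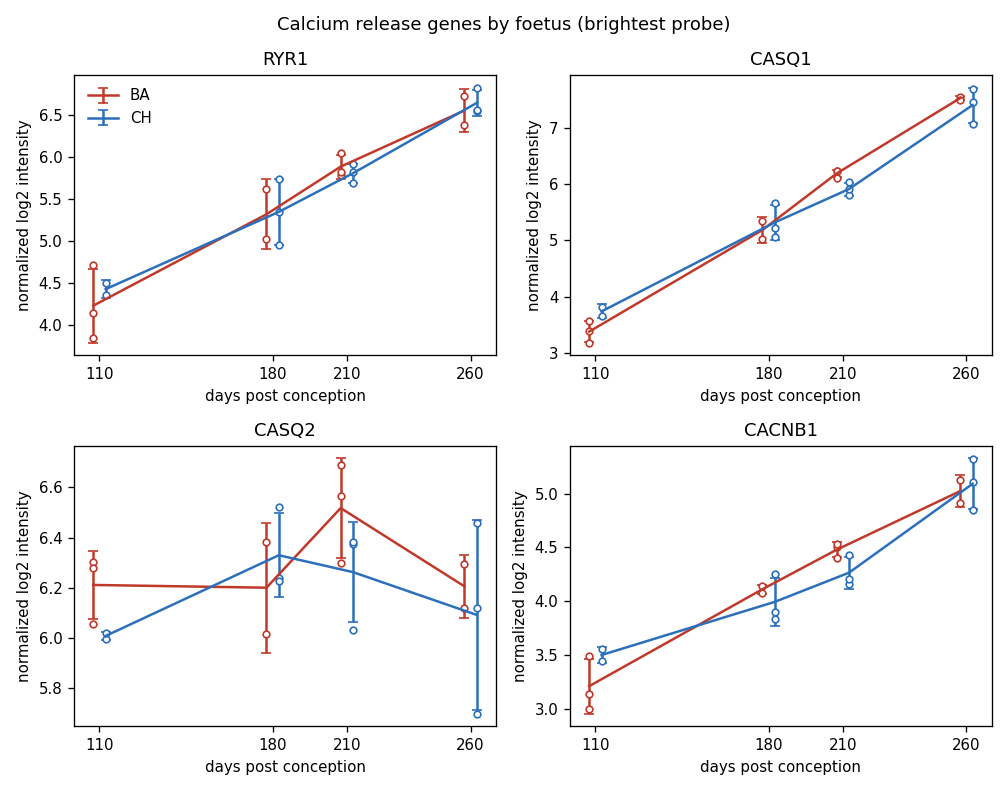
Normalized log2 intensity (y axis) of the brightest probe of RYR1, CASQ1, CASQ2 and CACNB1 at each stage in dpc (x axis), with a point for each foetus, a line through the group means, error bars of 1 SD, and a colour for each breed. RYR1, CASQ1 and CACNB1 climbed with stage in both breeds, while CASQ2 stayed between 5.70 and 6.69.

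CACNB1, the cytoplasmic subunit that holds the T-tubule channel opposite RYR1, was the only measured part of that channel among the 8 genes. On its brightest probe the group means in BA were 3.21 ± 0.25 (SD, n = 3) at 110 dpc, 4.11 ± 0.04 (n = 2) at 180 dpc, 4.48 ± 0.07 (n = 3) at 210 dpc and 5.02 ± 0.15 (n = 2) at 260 dpc. In CH they were 3.50 ± 0.07 (SD, n = 2), 3.99 ± 0.23 (n = 3), 4.26 ± 0.15 (n = 3) and 5.09 ± 0.24 (n = 3). The lowest array at 260 dpc, 4.85, lay above the highest at 110 dpc, 3.55. The rise from 110 to 260 dpc was 3.52-fold in BA (log2 difference 1.82, SE 0.16, limma adjusted p = 1.13e-07) and 3.02-fold in CH (adjusted p = 4.87e-07). A second CACNB1 probe (A_73_111079) stayed between 3.18 and 4.16 on all arrays and did not pass the test, with differences of 0.26 in BA (95% interval -0.19 to 0.70, adjusted p = 0.323) and 0.19 in CH (95% interval -0.25 to 0.63, adjusted p = 0.473). The call for CACNB1 thus rests on 1 of its 2 probes.

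Among the pumps, ATP2A1, the SERCA of fast fibres, rose in both breeds on all 3 of its probes. In BA the level of the brightest probe was 7.32, 7.68 and 7.81 at 110 dpc, 8.99 and 9.40 at 180 dpc, 10.16, 9.81 and 9.95 at 210 dpc, and 10.63 and 10.80 at 260 dpc. In CH it was 7.98 and 7.69, then 9.30, 9.66 and 9.26, then 9.73, 9.94 and 9.69, and then 10.51, 10.89 and 10.72. The arrays of 4 stages formed 4 separate ranges in BA and in CH. Between 110 and 260 dpc the level rose 8.63-fold in BA (log2 difference 3.11, SE 0.18, limma adjusted p = 7.42e-10) and 7.29-fold in CH (adjusted p = 1.87e-09). The other probes differed by 3.95 and 3.96 in BA and by 3.47 and 3.45 in CH.

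ATP2A2, the SERCA of slow fibres and heart and of most other cells, was represented by 4 probes that did not move together. On the brightest (A_73_106338) the level in BA was 3.34, 3.20 and 3.62 at 110 dpc, 3.11 and 3.05 at 180 dpc, 3.00, 3.11 and 2.80 at 210 dpc, and 3.26 and 3.33 at 260 dpc. In CH it was 3.31 and 3.24, then 3.15, 3.07 and 3.15, then 3.00, 2.95 and 3.06, and 3.15, 3.11 and 3.19 at the end. The means were lowest at 210 dpc in both breeds. Between 260 and 110 dpc the difference was -0.09 in BA (95% interval -0.34 to 0.16, limma adjusted p = 0.532) and -0.13 in CH (95% interval -0.38 to 0.12, adjusted p = 0.392), and in BA its sign turned when the arrays were scaled to their medians. The CH arrays of the 2 stages did not overlap, with 3.19 as the highest at 260 dpc and 3.24 as the lowest at 110 dpc.

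The second brightest ATP2A2 probe (A_73_107013) gave another course. Its level in BA was 2.13, 2.57 and 2.81 at 110 dpc, 2.29 and 2.42 at 180 dpc, 2.94, 2.55 and 2.42 at 210 dpc, and 4.07 and 4.09 at 260 dpc. In CH it was 2.38 and 2.31, then 2.19, 2.31 and 2.36, then 2.75, 2.48 and 2.82, and at 260 dpc 4.05, 3.94 and 4.16. The 5 arrays at 260 dpc stood apart from the other 16, which reached 2.94 at most. Here the gene was 2.98-fold higher at 260 than at 110 dpc in BA (log2 difference 1.58, SE 0.18, limma adjusted p = 1.13e-06) and 3.26-fold in CH (log2 difference 1.70, adjusted p = 4.69e-07). The probe A_73_P254441 followed it, with differences of 1.65 in BA (adjusted p = 0.00103) and 2.15 in CH (adjusted p = 9.4e-05). On the dimmest probe (A_73_P070846) the difference was -0.10 in BA (adjusted p = 0.537) and 0.53 in CH (adjusted p = 0.00257). The call in CH was lost in the authors' unscaled values (0.16), with the slide as a block (0.35) and without CH 110 replicate 2 (0.32).

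Across the 21 arrays, which share stage and breed, the brightest ATP2A2 probe correlated with the other 3 at r = 0.17, -0.03 and 0.61, while the second and A_73_P254441 correlated at r = 0.93. The mean of the 4 probes was higher at 260 than at 110 dpc by 0.76 in BA (limma adjusted p = 0.000397) and by 1.06 in CH (adjusted p = 1.4e-05). Whether ATP2A2 changed over gestation therefore depended on the probe that was read. All 4 probes carry the same transcript identifier, and the part of the transcript that each one reads was not analysed here, so splice forms could not be assigned. Counted over all probes of the 8 genes, 12 of the 16 tested rose in BA and 13 of the 16 in CH, where 27.6% and 27.5% of all tested probes rose, and the 13 include the dimmest ATP2A2 probe.

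**Figure D2:**
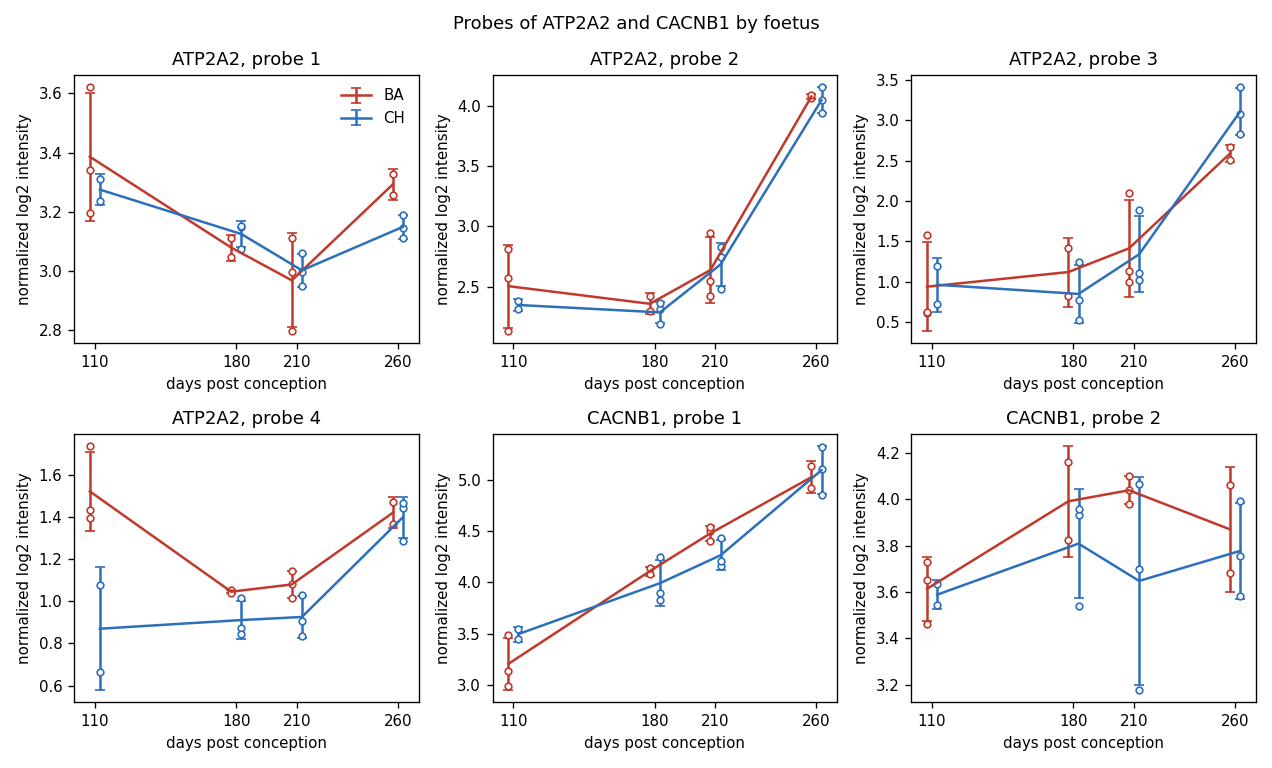
Normalized log2 intensity (y axis) of each probe of ATP2A2 and CACNB1 at each stage in dpc (x axis), with a point for each foetus, a line through the group means of each breed, error bars of 1 SD, and a y axis scaled to each probe (probes are numbered from the brightest). A pair of ATP2A2 probes jumped between 210 and 260 dpc while the brightest stayed between 2.80 and 3.62, and the second CACNB1 probe stayed between 3.18 and 4.16.

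SLN, which slows the SERCA pumps in skeletal muscle, was already well measured at 110 dpc and rose the least of the 6 genes. Its group means in BA were 8.73 ± 0.11 (SD, n = 3), 9.39 ± 0.04 (n = 2), 9.88 ± 0.04 (n = 3) and 10.26 ± 0.14 (n = 2) from 110 to 260 dpc. In CH they were 8.89 ± 0.15 (SD, n = 2), 9.51 ± 0.05 (n = 3), 9.71 ± 0.20 (n = 3) and 10.27 ± 0.25 (n = 3). The highest array at 110 dpc, 8.99, was below all arrays of later stages. The rise from 110 to 260 dpc was 2.89-fold in BA (log2 difference 1.53, SE 0.14, limma adjusted p = 1.32e-07) and 2.62-fold in CH (adjusted p = 3.82e-07).

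PLN, the regulator best known from heart and slow fibres, had the largest rise of the 8 genes. In BA its level was -0.02, 0.50 and 0.54 at 110 dpc, 1.76 and 1.17 at 180 dpc, 3.39, 2.65 and 3.22 at 210 dpc, and 5.17 and 5.24 at 260 dpc. In CH it was 0.35 and 0.30, then 2.33, 2.48 and 2.14, then 4.08, 2.65 and 4.48, and then 5.75, 5.23 and 6.24. The stages did not overlap within a breed, although 1 CH array of 210 dpc (2.65) lay well below the others of its group. The rise was 29.1-fold in BA (log2 difference 4.86, SE 0.40, limma adjusted p = 3.54e-08) and 42.5-fold in CH (log2 difference 5.41, adjusted p = 1.03e-08). By size of difference PLN stood at place 19 of the 20132 probes in BA and at place 10 in CH. Its other probe, which the filter left out, differed by 4.68 and 5.36.

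**Figure D3:**
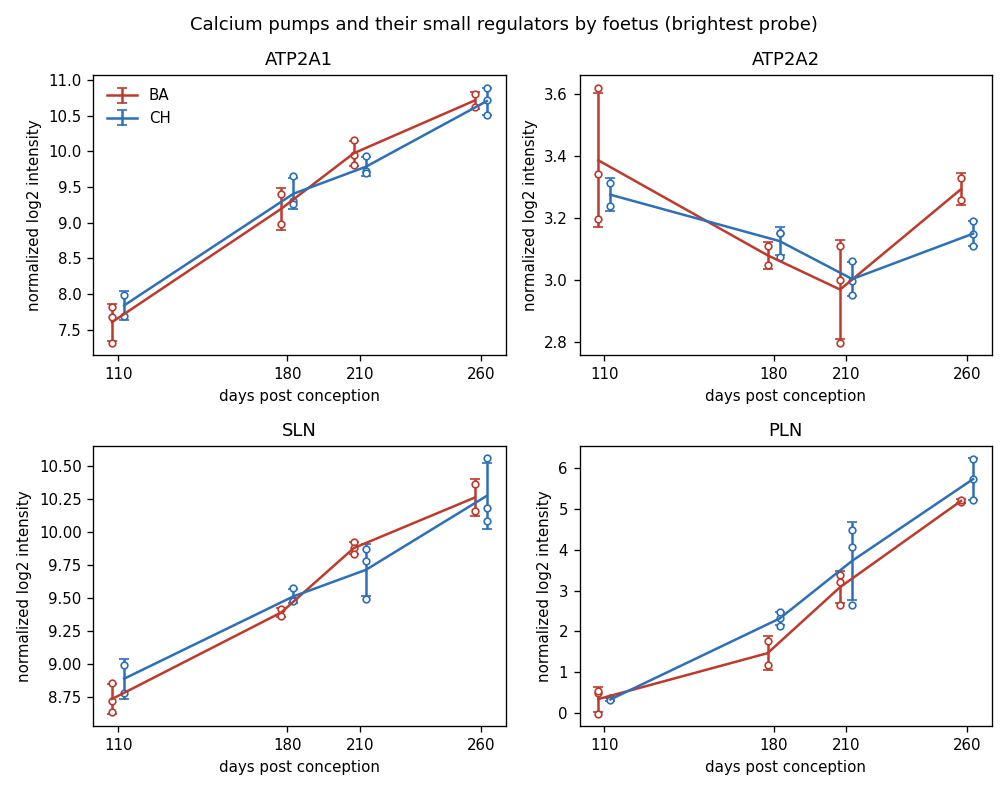
Normalized log2 intensity (y axis) of the brightest probe of ATP2A1, ATP2A2, SLN and PLN at each stage in dpc (x axis), with a point for each foetus, a line through the group means, error bars of 1 SD, and a colour for each breed. ATP2A1, SLN and PLN climbed with stage in both breeds, PLN from between -0.02 and 0.54 to between 5.17 and 6.24, while the brightest ATP2A2 probe was lowest at 210 dpc.

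Each of the 6 genes rose by a similar amount when arrays of 1 scan day were compared with each other. These are a few arrays of the main test, so the comparison is not independent of it. On one day CH 260 replicate 1 was set against CH 110 replicate 2. On the other, BA 260 replicate 1 was set against BA 110 replicates 1 and 2, and CH 260 replicates 2 and 3 against CH 110 replicate 1. The difference between 260 and 110 dpc within a day, for CH on one day and BA and CH on another, was 2.20, 1.96 and 2.20 for RYR1, 3.42, 4.07 and 3.74 for CASQ1, and 1.30, 1.67 and 1.77 for CACNB1. It was 2.81, 3.13 and 2.82 for ATP2A1, 1.40, 1.42 and 1.33 for SLN, and 5.45, 4.93 and 5.38 for PLN. No slide held both stages of the same breed, so a comparison within slides was not possible.

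The probes of 3 pairs of related proteins were also compared within arrays, which removes the scaling between arrays and tests whether the pair changed unequally. From 110 to 260 dpc the fast pump ATP2A1 rose by 3.097 more than the brightest ATP2A2 probe (2.99 and 3.20 in the 2 breeds). CASQ1 rose by 3.86 more than CASQ2 (3.58 and 4.15). SLN minus PLN changed by -3.68 (-4.02 and -3.34), so PLN rose more than SLN. Each of these 3 differences had p = 0.01 in a two-sided exact permutation test of stage within breed, which is the smallest p that 100 permutations allow, and an adjusted p of 0.02 over the 6 pair tests. With the mean of each gene's probes, ATP2A1 rose by 2.56 more than ATP2A2 (exact permutation p = 0.01).

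The sampled stages divide this span into steps of 70, 30 and 50 days. Averaged over the breeds, 6 of the 8 genes rose between 110 and 180 dpc, when 12.5% of all tested probes did, 4 rose between 180 and 210 dpc (5.35% of all), and 7 rose between 210 and 260 dpc (24.8% of all). The 4 genes of the middle step were CASQ1, ATP2A1, SLN and PLN, and the gene that joined in the last step was ATP2A2. None of the 8 fell in any step, where 11.4%, 4.33% and 19.9% of all tested probes did, but the brightest ATP2A2 probe differed by -0.23 in the first (limma adjusted p = 0.0572). There it was called lower with the slide (-0.25) or the scan day (-0.24) as a block, with sire in the fit (-0.27), without BA 110 replicate 2 (-0.28) and without BA 210 replicate 3 (-0.23). CASQ2 differed by 0.16, 0.13 and -0.24 in the 3 steps and passed the test in none. Its last step was called after quantile normalization (-0.46), in the authors' unscaled values (-0.65) and without CH 260 replicate 3 (-0.33).

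ATP2A1 gained 1.58 between 110 and 180 dpc, 0.58 between 180 and 210 dpc and 0.83 between 210 and 260 dpc. CASQ1 gained 1.69, 0.80 and 1.41 over the same steps, and SLN 0.64, 0.35 and 0.47. PLN gained 1.56, 1.52 and 2.06. Since the steps differ in length, their gains per 10 days are also given. They were 0.23, 0.19 and 0.17 for ATP2A1, 0.24, 0.27 and 0.28 for CASQ1, 0.09, 0.12 and 0.09 for SLN and 0.22, 0.51 and 0.41 for PLN, with no test between steps. RYR1 gained 1.01 and 0.76 in the first and last steps, with 0.52 in between (limma adjusted p = 0.0551), and CACNB1 gained 0.70 and 0.69, with 0.32 in between (adjusted p = 0.0796). The middle step was the least stable. SLN lost its call there under 8 of 13 other settings, and RYR1 gained one under 6. ATP2A1 lost its call with sire in the fit (0.48), in the authors' unscaled values and without BA 180 replicate 1 (0.47), and PLN with the slide as a block (1.38). In the last step SLN gained only 0.06 after quantile normalization, and 3 of the 8 genes were called in the authors' unscaled values.

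All 4 ATP2A2 probes were higher at 260 than at 210 dpc. The brightest differed by 0.24 (SE 0.08, limma adjusted p = 0.0231), a rise that turned into -0.18 in the authors' unscaled values and lost its call with no filter, with another background correction, without BA 210 replicate 3 (0.19) and without BA 260 replicate 2 (0.22). The other 3 differed by 1.41 (adjusted p = 1.67e-07), 1.47 (adjusted p = 0.000119) and 0.41 (adjusted p = 0.0012). Before 210 dpc none of the 4 passed the test in either step, except the brightest between 110 and 180 dpc under the other settings given for that step. Of 6 slow fibre genes tested, 0 rose and 1 fell between 110 and 180 dpc, 0 rose and 0 fell between 180 and 210 dpc, and all 6 rose between 210 and 260 dpc. Of all tested probes 12.5% rose and 11.4% fell in the first step, and 5.35% and 4.33% in the second. In the last step 24.8% rose and 19.9% fell. At these shares, the counts of 6 genes in the first and middle steps do not set the list apart there.

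**Figure D4:**
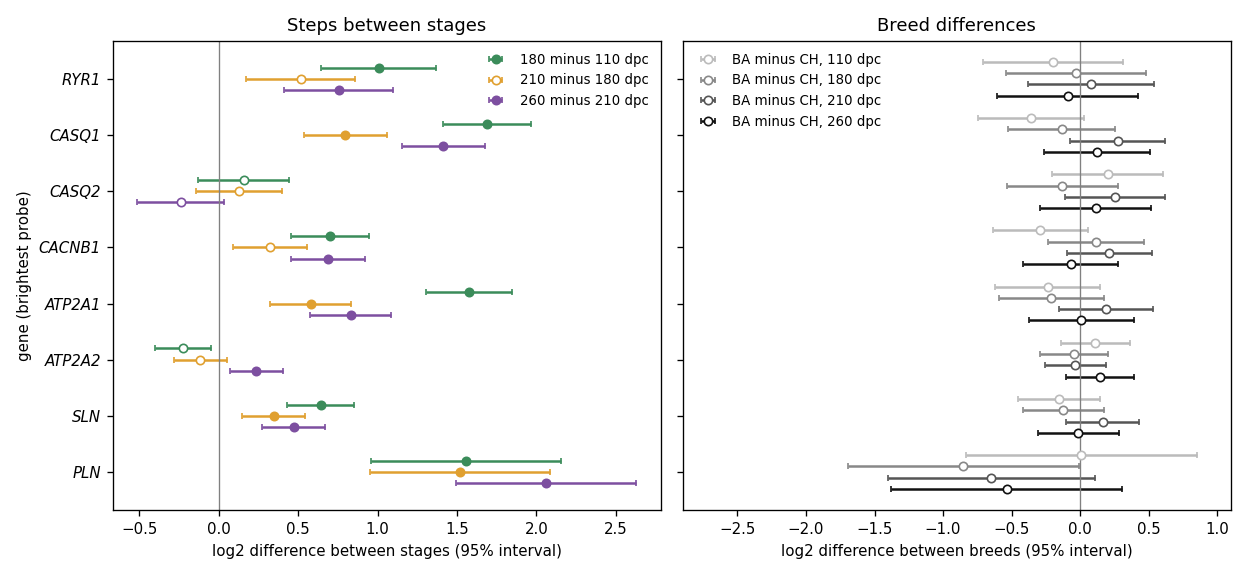
Log2 differences (x axis) of the 8 genes between successive stages, averaged over the breeds (left), and between BA and CH at each stage (right), with a point for each estimate, filled where called, and a bar for its 95% interval from limma. Intervals of the steps lay above 0 for most genes, whereas no breed difference was called, the one farthest from 0 being that of PLN at 180 dpc (-0.85).

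**Figure D5:**
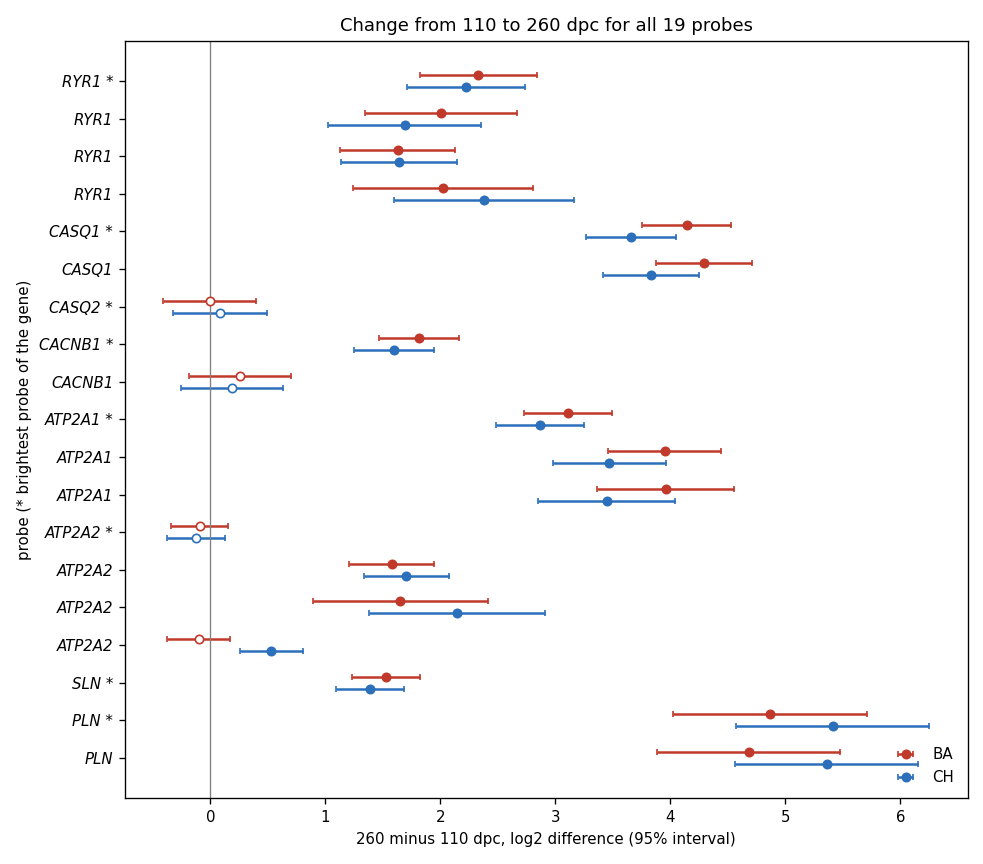
Log2 difference between 260 and 110 dpc (x axis) for each of the 19 probes of the 8 genes in BA and CH, with a point for each estimate, filled where called, and a bar for its 95% interval from limma. All probes of RYR1, CASQ1, ATP2A1 and PLN lay above 0, while those of ATP2A2 spread from -0.10 to 1.65 in BA and those of CACNB1 from 0.26 to 1.82.

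The second question of the design was whether the breeds differ, and for these genes no brightest probe was called. On average over the stages 0 of the 8 genes were called, against 0.358% of all tested probes, and at the single stages 0 of the 8 were called, against 0.273% at 110 dpc, 0.00993% at 180 dpc and 0% at 210 and 260 dpc. For the breed average limma gave 2512 of the 20132 tested probes an unadjusted p under 0.05, and 1 of the 8 genes, PLN, was among them. That count does not set the 8 genes apart from the array. PLN is described further below as the gene of lowest p, so its detail is not separate support. The change from 110 to 260 dpc did not differ by breed for any tested probe after adjustment, with 1427 at an unadjusted p under 0.05 and none of the 8 genes among them (0% of all tested probes called). The rise of CASQ1 was larger in BA by 0.48 (95% interval -0.07 to 1.03) and that of PLN differed by -0.55 (95% interval -1.74 to 0.65), neither of which passed the test.

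For 7 of the 8 genes the breed average lay between -0.06 and 0.11. The 95% interval of BA minus CH was -0.31 to 0.19 for RYR1, -0.21 to 0.17 for CASQ1, -0.09 to 0.31 for CASQ2 and -0.18 to 0.16 for CACNB1. For the pumps it was -0.25 to 0.12 for ATP2A1 and -0.08 to 0.17 for ATP2A2, and for SLN it was -0.18 to 0.11. The fit with sire compares BA offspring of the sire Fallou with CH offspring of the sire Indiana, not the breed averages. There RYR1 differed by -0.33, which was not called either.

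PLN averaged 0.51 lower in BA than in CH (BA minus CH -0.51, SE 0.19, 95% interval -0.92 to -0.10), with an unadjusted p of 0.0188 and a limma adjusted p of 0.29, so it did not pass the test. By stage the difference was 0.01 at 110 dpc, -0.85 at 180 dpc, -0.65 at 210 dpc and -0.54 at 260 dpc. Leaving out single arrays moved it to between -1.14 (without BA 180 replicate 1) and -0.56 (without BA 180 replicate 2) at 180 dpc. At 210 dpc the range was -1.19 (without CH 210 replicate 2) to -0.27 (without CH 210 replicate 3; -0.43 without BA 210 replicate 2), and at 260 dpc -0.79 to -0.28 (without CH 260 replicate 2 and replicate 3). At 180 dpc the breeds did not overlap, with 1.76 and 1.17 in BA and 2.14 to 2.48 in CH (adjusted p = 0.797), as for 25.5% of all tested probes. Slides held both breeds of a stage in 6 cases, where BA minus CH ranged from -1.43 to 0.75 and was negative in 4. In the fit with sire, which compares offspring of a single sire in each breed, PLN differed by -0.87, still short of the threshold. SLN minus PLN was higher in BA by 0.48 on average, with p = 0.0542 in a two-sided exact permutation test of breed within stage over 20000 permutations and 0.0813 after adjustment over the 6 pair tests. The other pairs differed by -0.11 (p = 0.336 in the same exact permutation test) and -0.13 (p = 0.238).

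The one probe of these genes called between the breeds was the dimmest of ATP2A2 (A_73_P070846), which is named after its values were seen. At 110 dpc it was 1.43, 1.39 and 1.74 in BA and 1.08 and 0.66 in CH, a difference of 0.65 (SE 0.13, limma adjusted p = 0.0474). The other 3 ATP2A2 probes were not called at that stage, the call was lost under 11 of the 12 other settings, and it held in 3 of 21 fits that each left out 1 array.

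The courses of the 8 genes over the arrays were also compared with each other and with all other genes. Across the 21 arrays the 6 rising genes correlated with each other at r = 0.91 to 0.98, CASQ2 with them at 0.005 to 0.14, and the brightest ATP2A2 probe with them at -0.48 to -0.29. These correlations carry the shared course of stage and are given without a test. Among 7924 other genes, the closest in pattern to ATP2A1 were ENO3, PGM1, ACTN3, TMOD4 and ASB15, each at r = 0.99. Those closest to RYR1 were ANAPC16 and SMIM11 at 0.98 and KCNJ12, MYOT and LMOD3 at 0.97. The brightest ATP2A2 probe had no match as close, with PRDX2 at 0.81, DOLK at 0.79 and C7H1orf35, MATK and UMPS at 0.77.

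Genes whose products build the junction of T-tubule and store, or assist release there, mostly rose too. Of 18 such genes, 15 were tested, 13 rose from 110 to 260 dpc in each breed and 1 fell, with a median difference of 1.59 in BA and 1.64 in CH. Of all tested probes 27.6% rose and 24.8% fell in BA, and 27.5% and 24.7% in CH. CACNG1, another subunit of the T-tubule channel, differed by 2.40 in BA (limma adjusted p = 6.98e-09) and 1.92 in CH. CAV3, the caveolin of muscle, differed by 2.10 and 1.83, and JPH1, a junctophilin that ties the membranes together, by 2.12 and 1.83. SELENON, a selenoprotein of the reticulum membrane, fell, with differences of -0.70 and -0.88. ASPH did not pass the test in either breed.

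Calcium channels and store proteins that are not particular to the muscle junction went either way. Of 15 genes, 8 were tested, 3 rose and 2 fell in each breed. Of all tested probes 27.6% rose and 24.8% fell in BA, and 27.5% and 24.7% in CH. The counts of so few genes do not set this list apart from the array. The median difference was 0.28 in BA and 0.30 in CH. TMEM38B, a counter-ion channel of the store, differed by 1.48 in BA and 1.03 in CH, ITPR2, an inositol trisphosphate receptor, by 0.60 and 1.06, and ORAI1, a store-operated channel of the cell surface, by 0.56 and 0.61. CALR, the calcium-binding chaperone calreticulin, fell, with differences of -0.64 and -0.75. In the authors' unscaled values 1 of these genes rose in BA and none in CH. Of 7 genes of calcium export and buffering only 1 was tested, ATP2B1, a calcium pump of the cell surface, which fell with differences of -0.77 and -0.84. ATP2B4 and PVALB, which the filter left out, were well above background on all 21 arrays. They differed by -1.10 and -1.49 and by -1.53 and -1.16. ATP2B2, also left out and well above background on 5 arrays, differed the other way, by 2.83 and 2.14.

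Since the pumps have fast and slow forms, the contractile genes of each fibre type were read from the same arrays. From 110 to 260 dpc 27.6% of all tested probes rose and 24.8% fell in BA, and 27.5% and 24.7% in CH. All 5 tested genes of fast fibres rose in both breeds (median difference 2.95 in BA and 2.63 in CH), among them ACTN3 by 7.06 and 6.80, MYH1 by 2.95 and 2.63 and MYH2 by 3.55 and 3.51. Of 6 tested slow fibre genes 5 rose (median 1.56 and 1.61), among them TNNT1 by 2.79 and 2.75, TNNC1 by 2.10 and 2.06 and MYH7 by 1.89 and 1.66, while MYL3 did not pass the test. Of 3 developmental genes 2 fell, the embryonic MYL4 with differences of -3.71 and -4.71 and MYH3 with -0.75 and -0.91. In the breed average no gene of these lists was called.

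Markers of skeletal muscle and of other cell types were also read. From 110 to 260 dpc 27.6% of all tested probes rose and 24.8% fell in BA, and 27.5% and 24.7% in CH. The lists are short, so counts near these shares are not read as shifts of a cell type. In such bulk tissue fewer cells of a type and less RNA per cell cannot be told apart. Of 5 skeletal muscle markers measured, 4 rose in both breeds, CKM by 3.28 and 2.94, ACTA1 by 2.78 and 2.37, and DES by 1.17 and 0.89, with MYF6 as the other, while MYOG fell in CH only (-1.13, against -0.42 in BA, a difference of breeds not called). The summed level of the muscle markers went from 10.76 to 11.29 at 110 dpc to 12.92 to 13.28 at 260 dpc. That of the red cell markers went from between 8.69 and 9.65 to between 7.22 and 8.08, with both tested genes lower, and that of the fibroblast markers went from between 10.30 and 11.16 to between 9.79 and 10.50, with 2 of 5 lower in BA and 3 in CH.

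The summed level of the fat markers went from between 1.97 and 3.68 to between 5.48 and 6.41. It mostly followed LPL, which rose (4.05 in BA and 3.90 in CH) to means of 5.65 and 5.78 at 260 dpc. FABP4, the other tested, did not pass, nor did PLIN1 and CIDEC, which the filter left out. The summed level of the Schwann cell and nerve markers went from between 4.29 and 4.71 to between 5.39 and 6.44, with 2 of 3 tested genes higher. Smooth muscle markers gave 1 of 5 higher, MYH11, with 2 lower in BA and 1 in CH, endothelial markers 2 higher and 1 lower of 5, and leukocyte markers 1 of 3 higher in BA and 2 in CH. The cardiac markers summed to between 3.73 and 4.21 at 110 dpc and between 1.18 and 2.20 at 260 dpc. Of the 4 cardiac markers with a probe, TNNI3 and TNNT2 were well above background on all 21 arrays, and NPPA and NPPB on none. TNNT2, which the filter left out, differed by -3.42 in BA and -3.85 in CH. TNNI3 differed by -1.04 in BA, which was not called (limma adjusted p = 0.114), and by -1.46 in CH (adjusted p = 0.0296). The sum thus rests on TNNT2 and TNNI3 and is not read as a signal of cardiac cells. The part of these marker changes in the values of the calcium genes was not tested.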

How the data were processed

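Total RNA of 21 foetal muscles was labelled with Cy3 and hybridised to Agilent bovine arrays. The authors deposited scanner intensity files from Feature Extraction 10.7 and a value table in log2, of which 99.98% of values lay within 0.01 of the log2 of the deposited processed signal. Here the log2 processed signal was scaled to the 75th percentile of each array, with 2.687 added to all. The 258 outlier spot values were left out, no spot was saturated, and probes well above background numbered 29017 to 34501 an array. Control spots were dropped and spots of one probe averaged. Probes were named through their RefSeq transcript, which gave no genome position used here.

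Probes with a group mean above 0 in at least 7 of the 8 groups were tested in limma 3.58.1 (R 4.3.3) with a mean for each group, all arrays together, and Benjamini-Hochberg adjustment. The 3 probes under the filter took values from a fit over all probes. The study's methods name limma. The test was also run on simulated arrays of independent noise with known shifts. These hold no slide or sire effects and no correlation between probes, so they cannot show how such effects bear on the calls. All 8 measured members are named. Of each further list, at most 3 genes of lowest p called in the same direction in both breeds, and 1 in the other direction, are named. Likeness is Pearson's r between brightest probes. The members and lists were chosen with earlier results of these data known. Alternatives were background correction by normexp with an offset of 50 (on median signals), quantile or median scaling, the authors' table, other filters, sex, slide, scan day, replicate number or sire in the fit, trended variance, the mean of a gene's probes and each array left out.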

Additional observations from a re-analysis of the deposited data

How the results depend on the processing

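The 6 rises from 110 to 260 dpc kept direction and call under all 13 alternatives and without each array in turn, and the count of members called was 6 or 7 in each breed. Their sizes moved by over 1.5 times for CACNB1 with the mean of its probes (1.04 in BA, 0.89 in CH) and for SLN after quantile normalization (0.9975 and 0.87). The authors' unscaled values moved the median of all tested probes to -0.39 in BA and -0.34 in CH, and median scaling moved it to 0.16 in BA. The number of members called between 180 and 210 dpc was 2 with the authors' values and 2 with sire in the fit, and 2 to 6 without single arrays (2 without BA 180 replicate 1). Between 210 and 260 dpc it was 3 with the authors' values. The breed difference of SLN minus PLN was 0.56 (exact permutation p = 0.0222) after quantile normalization and 0.39 to 0.63 without single arrays (p 0.0114 to 0.115). It passed without BA 110 replicate 3, BA 180 replicate 1, CH 110 replicate 1, CH 210 replicate 2 or CH 260 replicate 2. For lists, added after the values were seen, the genes of other stores and entry called were 3 in BA and 2 in CH with the authors' values and 3 in CH with the slide as a block. Slow fibre genes called in BA were 3 after quantile normalization, with the authors' values and with the slide block. Developmental genes called in BA were 1 under median scaling and with sire in the fit, and 1 to 2 without single arrays, and the export gene called in BA 0 to 1.

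Signs turned only for values that did not pass the test, except for ATP2A2. The mean of its probes gave 0.76 in BA and 1.06 in CH for 260 minus 110 dpc and 0.16 for 210 minus 180 dpc, while its brightest probe gave 0.0398 under median scaling, 0.0728 with sire, -0.18 for 260 minus 210 dpc with the authors' values and -0.0051 for the breed average with the slide block. Its dimmest probe gave 0.0318 in BA under median scaling. CASQ2 in BA gave 0.13 under median scaling, 0.0471 with slide, 0.018 with scan day and 0.047 with sire, and in CH -0.0126 with normexp, -0.15 with quantile and -0.28 with the authors' values. The second CACNB1 probe gave -0.16 in BA and -0.18 in CH with the authors' values. Breed averages turned to 0.0309 for CASQ1 and 0.0233 for SLN with the authors' values, to 0.0233 for ATP2A1 and 0.0427 for SLN with quantile, and for CACNB1 to 0.0034 with normexp, 0.0052 with quantile, 0.0475 with the authors' values, 0.0062 with slide and 0.0831 with the mean of probes. PLN at 110 dpc between breeds was -0.0601 with quantile, -0.0729 with median scaling and -0.0168 with slide. It was -0.33 with sire, a value for offspring of a single sire in each breed. Without single arrays the breed average ran from -0.13 to 0.0145 for RYR1, -0.0651 to 0.02 for CASQ1, -0.042 to 0.0257 for CACNB1 and -0.0583 to 0.0047 for SLN, and PLN at 110 dpc from -0.0888 to 0.19. The stage difference ran from -0.0934 to 0.0826 in BA and -0.0986 to 0.28 in CH for CASQ2, and in BA from -0.19 to 0.0245 for the brightest and -0.17 to 0.0066 for the dimmest ATP2A2 probe. The causes were not tested.

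Replicate numbers did not pair the arrays: deviations from group means correlated at a median r of 0.009 over 66 pairs with the same number and -0.009 over 126 others. With the replicate block, RYR1 (0.55, limma adjusted p = 0.0219) and CACNB1 (0.33, adjusted p = 0.0176) were also called between 180 and 210 dpc, and PLN at 110 dpc gave -0.13 between the breeds. Under this block no count of members called moved by over 1.5 times.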
